A study of Mus musculus with 3 samples.

Results

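The V and constant genes of the T-cell receptor α and β chains were followed in 3 RNA-seq libraries of follicular regulatory T (TFR) cells. The members were all rows whose name starts with Trav, Trbv, Trac or Trbc and whose biotype marks a T-cell receptor gene. They were 133 of the 25759 genes listed, namely 108 Trav genes and Trac on chromosome 14, and 22 Trbv genes with Trbc1 and Trbc2 on chromosome 6. Each library was made from GFP+CXCR5+GITRhi CD4+B220- cells sorted from spleen and mesenteric lymph nodes 10 days after NP-KLH in alum was injected (125 µg, boosted on day 7). The library labelled N came from Nfatc1fl/fl.Prdm1gfp/+.FIC mice, in which Nfatc1 is floxed. The library labelled αA came from Nfatc1caaA.Prdm1gfp/+.FIC mice, which carry a transgene for constitutively active NFATc1/αA. The library labelled PαA came from Nfatc1caaA.Prdm1gfp/fl.FIC mice, in which the second Prdm1 allele, for Blimp-1, is floxed as well. All 3 share the Prdm1gfp reporter allele and FIC, a Cre driven by Foxp3 and so meant to act in regulatory T cells. In a reporter cross the study also found FIC activity in some Foxp3- conventional and follicular helper T cells. It reads these as possibly former regulatory T cells. The number of mice behind each library is not given in the sources used here.

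Each genotype had 1 library, so no difference could be held against a spread between mice, and no test was made. The values compare these libraries, not the genotypes. Intervals are exact Clopper-Pearson intervals at 95% and cover counting error only, since the reads were amplified by PCR without molecular identifiers. The libraries held 19526581 to 24041462 unique gene reads. Levels are given as CPM, unique gene reads per 1000000 unique gene reads of the library. Nfatc1 itself stood at 605, 614 and 325 CPM in N, αA and PαA, an order that does not follow the labels, and a count over the whole gene does not show whether a floxed part was lost. Of the genes behind the sort, Cd4 stood at 1880, 1580 and 1380 CPM, Cxcr5 at 181, 319 and 188 and Tnfrsf18 (GITR) at 474, 353 and 239. Prdm1, whose locus carries the GFP reporter, stood at 178, 179 and 80.8 CPM. Foxp3, which defines regulatory T cells and was not itself sorted on, stood at 160, 107 and 79.7 CPM.

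A T cell assembles its receptor from gene segments during development in the thymus. One V and one J segment are joined for the α chain, and one V, D and J segment for the β chain, and each joined exon is spliced to the constant gene of its chain. The V segment encodes most of the domain that contacts peptide and MHC, so the mix of V genes in a population is a coarse picture of its repertoire. In bulk RNA it counts transcripts, and more cells of a clone or more RNA per cell cannot be told apart.

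The sequences decide which V genes reads of 59 bases can tell apart. The members all matched GENCODE M21 (GRCm38) by gene ID, with the same start and end for 133 of 133. Every window of 59 bases within the exons of all 22 Trbv genes was found in no other gene outside their own place on either strand. Trbv4 and Trbv5 lie within a non-coding gene model, and reads from that model and from the 2 V genes cannot be told apart. The closely related Trbv13-1, Trbv13-2 and Trbv13-3 differ at 49 of the 294 positions of the V exon. The last 59 bases of that exon are shown because they separate genes that hold much of the Trbv use (plus strand, 5′ to 3′, capitals mark positions that are not the same in all 3).
Trbv13-1 (chr6:41116410-41116468): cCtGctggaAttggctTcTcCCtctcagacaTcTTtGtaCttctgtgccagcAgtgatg
Trbv13-2 (chr6:41121774-41121832): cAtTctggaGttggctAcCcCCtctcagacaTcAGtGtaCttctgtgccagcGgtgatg
Trbv13-3 (chr6:41130527-41130585): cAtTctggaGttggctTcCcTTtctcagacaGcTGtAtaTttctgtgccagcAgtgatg

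Trbv3 and 4 Trav genes that differed between libraries are shown in the same way by the end of the V exon (plus strand, capitals mark the codon of the conserved cysteine, where the hypervariable CDR3 loop begins).
Trbv3 (chr6:41048770-41048828): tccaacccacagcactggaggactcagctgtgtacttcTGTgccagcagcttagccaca
Trav1 (chr14:52428818-52428876): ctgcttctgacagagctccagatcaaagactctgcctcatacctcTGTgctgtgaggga
Trav9-2 (chr14:53591456-53591514): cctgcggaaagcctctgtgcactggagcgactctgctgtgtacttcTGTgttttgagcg
Trav17 (chr14:53807057-53807115): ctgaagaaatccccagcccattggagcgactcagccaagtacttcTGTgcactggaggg
Trav19 (chr14:53845769-53845827): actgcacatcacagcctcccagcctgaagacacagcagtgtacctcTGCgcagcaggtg

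The Trav locus holds duplicated blocks, whose genes carry d or n in their names. Of 108 Trav genes, 39 had no window of 59 bases of their own and 8 had only such windows. There were 18 pairs of Trav genes with an identical V exon. Trav4d-4 and Trav4n-4 are one such pair, and Trav4-4-dv10 differs from them at 8 of 279 positions. Over the 3 libraries Trav4-4-dv10 had 932 gene reads, all unique, and Trav4d-4 had 2125, none unique. The stretch with the most differences is shown because Trav4-4-dv10 held the largest mean share of unique Trav reads while its copies had no unique read (plus strand, capitals mark positions that differ).
Trav4-4-dv10 (chr14:53684081-53684139): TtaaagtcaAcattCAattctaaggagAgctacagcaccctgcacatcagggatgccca
Trav4d-4 (chr14:52991293-52991351): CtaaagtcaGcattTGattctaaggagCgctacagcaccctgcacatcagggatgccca
Trav4n-4 (chr14:53302463-53302521): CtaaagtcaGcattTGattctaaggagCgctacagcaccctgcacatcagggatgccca

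The first exons of Trbc1 and Trbc2 differ at 1 of 375 positions, shown here with the bases around it because most reads of Trbc1 were not unique (plus strand, the capital marks the position that differs).
Trbc1 (chr6:41538448-41538506): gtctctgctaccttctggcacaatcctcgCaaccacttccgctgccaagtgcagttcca
Trbc2 (chr6:41546960-41547018): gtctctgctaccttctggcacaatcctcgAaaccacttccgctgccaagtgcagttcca

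The deposited files give an exon length of 0 for each of the 133 members. Their exon reads were therefore 0 in every library, and all of their reads were listed as intron reads and as gene reads. Use was measured here as a gene's share of the unique gene reads of all Trav or of all Trbv genes. Reads in the introns of genes that do have exons made up 3.01%, 4.56% and 3.29% of gene reads in N, αA and PαA, and their part in the member counts was not tested. The Trbv gene with the fewest reads, Trbv21, had 0, 1 and 6 in N, αA and PαA.

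The constant genes gave the level of each chain. Trac (chr14:54220521-54224206), the only constant gene of the α chain, had 39676, 42296 and 20891 unique reads in N, αA and PαA, which is 1650, 1990 and 1070 CPM. PαA was lowest and αA highest. The log2 ratio was 0.27 (0.25 to 0.29) for αA against N, -0.90 (-0.92 to -0.87) for PαA against αA and -0.63 (-0.65 to -0.60) for PαA against N. Trbc2 (chr6:41546730-41548352), the second constant gene of the β chain, had 18265, 18821 and 18772 unique reads, or 760, 886 and 961 CPM. PαA was highest here, and the log2 ratio for PαA against αA was 0.12 (0.09 to 0.15). Trbc1 (chr6:41538218-41539881) had 9934, 8379 and 8142 unique reads, or 413, 395 and 417 CPM. Trbc1 differed little in CPM, with log2 ratios of -0.07 (-0.11 to -0.02) for αA against N and 0.08 (0.04 to 0.12) for PαA against αA. With all gene reads counted, the first of these turned to 0.07 and the second to 0.00. TMM scaling moved all ratios of PαA against αA up by 0.18 and those of PαA against N up by 0.14, and the Trac ratio of PαA against αA was then -0.72.

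The lower α-chain level of PαA appeared in each kind of segment. The summed Trav genes stood at 287, 279 and 180 CPM in N, αA and PαA, and the 51 Traj segments at 89.2, 99.4 and 60.3. The β-chain segments were not lower in PαA, with the 22 Trbv genes at 872, 981 and 1090 CPM and the 13 Trbj segments at 92.8, 94.6 and 110. Ratios within a library do not depend on the library total. Reads of Trac per read of Trbc1 and Trbc2 were 1.41 (1.39 to 1.43) in N, 1.56 (1.53 to 1.58) in αA and 0.776 (0.762 to 0.790) in PαA. Trav reads per Trbv read were 0.330 (0.321 to 0.339), 0.284 (0.276 to 0.293) and 0.165 (0.159 to 0.171). Traj reads per Trbj read were 0.961 (0.906 to 1.02), 1.05 (0.988 to 1.12) and 0.547 (0.509 to 0.588). For PαA against αA the log2 ratio of the last 2 was -0.78 and -0.94, and that of Trac per Trbc2 read alone was -1.01. The size of such ratios depended on the reads counted, since many Trbc1 and Trav reads were not unique. With all gene reads, Trac per Trbc read was 0.737, 0.812 and 0.416 in N, αA and PαA. Trav per Trbv read was then 0.775, 0.752 and 0.406. PαA was lowest by either count. The genes of the CD3 and ζ chains, which carry the signal of the assembled receptor, summed to 3620, 4520 and 3560 CPM, with PαA close to N.

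**Figure D1:**
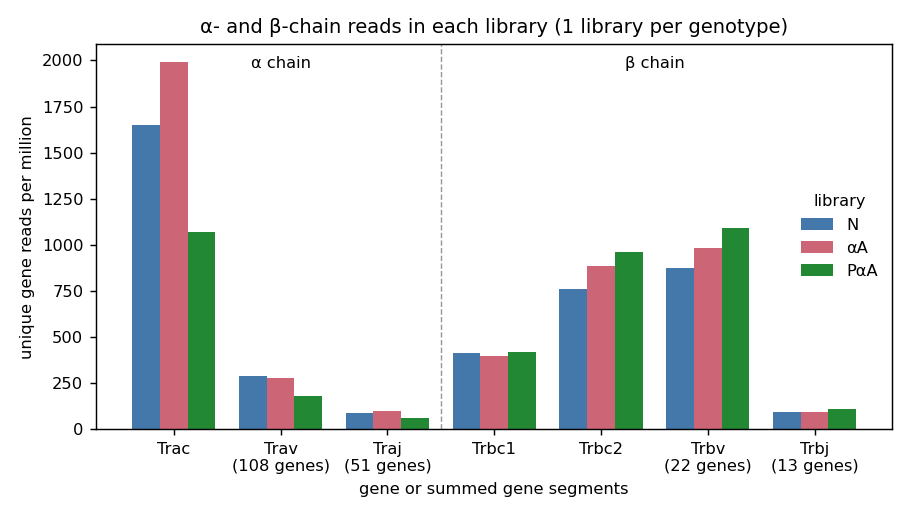
CPM, unique gene reads per 1000000 (vertical axis, starting at 0) of the α- and β-chain constant genes and of the summed V and J segments (horizontal axis) in the libraries N, αA and PαA, with 1 bar per library and no error bar because each genotype had 1 library. Trac, Trav and Traj are lowest in PαA, where Trac stands at 1070, while Trbc2, Trbv and Trbj are highest there.

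Within a chain the segments kept closer proportions when PαA was set against αA or N. Trbv reads per read of Trbc1 and Trbc2 were 0.743 (0.730 to 0.757) in N, 0.766 (0.752 to 0.780) in αA and 0.793 (0.779 to 0.807) in PαA. Trav reads per Trac read were 0.174 (0.170 to 0.179), 0.140 (0.136 to 0.144) and 0.169 (0.163 to 0.175), lowest in αA. For αA against N the log2 ratio of Trav per Trac was -0.31, and -0.14 with all gene reads. By unique reads it was larger in size than the ratios between chains, at 0.14 for Trac per Trbc and -0.21 for Trav per Trbv. The share of Trbc1 among unique reads of the β constant genes was 35.2% (34.7 to 35.8) in N, 30.8% (30.3 to 31.4) in αA and 30.3% (29.7 to 30.8) in PαA. Trbj1 segments, which lie next to Trbc1, made up 29.6% (27.8 to 31.6), 23.0% (21.1 to 24.9) and 27.8% (25.9 to 29.8) of Trbj reads. N had the highest share of both, though for Trbj1 its interval overlapped that of PαA. The libraries αA and PαA, alike in Trbc1, did not match in Trbj1.

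The largest share of a single V gene was that of Trbv3 in αA. Trbv3 (chr6:41048290-41048828) took 2881 of 20958 (N), 5291 of 20828 (αA) and 2646 of 21340 (PαA) Trbv reads. Its share was 13.7% (13.3 to 14.2), 25.4% (24.8 to 26.0) and 12.4%. It took the most reads of any Trbv gene in all 3 libraries, and its share in αA was 1.85 times that in N. Per kb of exon it led only in αA, at 22.3%, and fell behind Trbv13-2 in N and behind Trbv5 and Trbv13-2 in PαA, where it was at 10.6%. The neighbouring gene Trbv2 (chr6:41047340-41047995) went the other way, with 5.31% (5.01 to 5.62) in N, 2.46% (2.26 to 2.68) in αA and 3.23% in PαA.

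**Figure D2:**
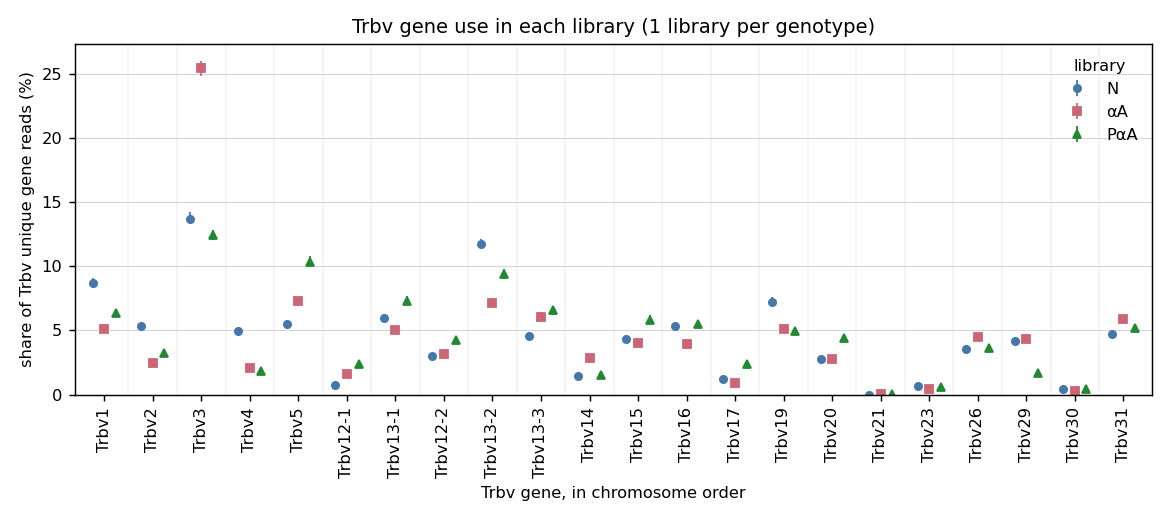
Share of Trbv unique gene reads in percent (vertical axis) for the 22 Trbv genes in chromosome order (horizontal axis), with 1 point per library and bars for the exact 95% counting interval. Trbv3 in αA, at 25.4%, lies above every other point, and the highest share in PαA is 12.4%.

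The other Trbv genes with large shares varied less. Trbv13-2 held 11.7% (11.3 to 12.1) in N, 7.11% (6.77 to 7.47) in αA and 9.38% (8.99 to 9.78) in PαA. Trbv5 held 5.50% (5.19 to 5.81), 7.25% (6.90 to 7.61) and 10.3% (9.94 to 10.8), higher in each library of that order. Trbv1 held 8.71% (8.33 to 9.10), 5.13% (4.83 to 5.44) and 6.34% (6.01 to 6.67), so Trbv1 and Trbv13-2 shared the order of N above PαA above αA. Trbv13-1 held 5.96%, 5.04% and 7.31%, and Trbv13-3 held 4.52%, 6.07% and 6.56%. Trbv19 was highest in N, at 7.24% (6.89 to 7.60), with 5.10% in αA and 4.93% in PαA, whose intervals overlap. Trbv31, the one Trbv gene that lies beyond the constant genes and on the minus strand, held 4.74%, 5.87% and 5.16%.

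Smaller Trbv genes had the largest ratios between libraries. Trbv4 held 4.92% (4.64 to 5.23) in N against 2.06% (1.87 to 2.26) in αA and 1.84% (1.66 to 2.03) in PαA. Trbv29 held 4.20% (3.93 to 4.48) in N and 4.30% (4.03 to 4.58) in αA, and 1.64% (1.48 to 1.82) in PαA. Trbv4 thus set N apart and Trbv29 set PαA apart. Trbv17 was highest in PαA, at 2.38% (2.18 to 2.59) against 1.22% (1.08 to 1.38) in N and 0.879% (0.756 to 1.01) in αA. Trbv12-1 held 0.763% (0.650 to 0.891), 1.56% (1.39 to 1.73) and 2.41% (2.21 to 2.63), 3.16 times as much in PαA as in N. Trbv14 was highest in αA, at 2.85% (2.63 to 3.08), with 300 reads or 1.43% in N and 320 reads in PαA.

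The evenness of Trbv use was summarised as the effective number of genes, the number of equally used genes that would give the same Shannon entropy. It was 16.4 in N, 14.5 in αA and 16.9 in PαA. Without Trbv3 it was 16.1, 16.8 and 16.4, so the low value of αA rests on that gene. To turn one library's Trbv shares into another's, 19.4% of the reads would have to move between genes for αA and N, 19.0% for PαA and αA and 16.2% for PαA and N. Without Trbv3 these became 16.3%, 12.4% and 17.7%, which makes αA and PαA the closest pair.

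Trav use was spread over more genes. Of 108 Trav genes, 69 had a unique read in some library, 31 reached 100 unique reads in at least 1, and 59 had at least 3 in each. Of the other 39, 19 had no reads at all and 20 had only reads that were not unique. Trav genes together had 6907, 5921 and 3522 unique reads among 16238, 15660 and 8672 gene reads in N, αA and PαA, so 42.5%, 37.8% and 40.6% of their reads were unique. The effective number of Trav genes was 41.6, 42.1 and 43.8 by unique reads, and 59.5, 59.4 and 61.0 with all gene reads, a difference between libraries that is small beside the choice of reads.

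The Trav genes with the largest mean shares did not rank alike in the 3 libraries. Trav4-4-dv10 held 6.54% (5.97 to 7.15) in N, 3.68% (3.22 to 4.19) in αA and 7.44% (6.59 to 8.36) in PαA. Trav7-5 went the other way, with 3.72% (3.29 to 4.19), 6.55% (5.94 to 7.21) and 2.13% (1.68 to 2.66), and led in αA. Per window of its own, an alternative chosen after seeing the data, Trav7-5 held 4.94% in αA, behind Trav9-1 at 5.93% and Trav7-4 at 5.08%. Trav12-2 held 3.71%, 5.84% and 4.83%, Trav9-1 held 2.91%, 5.40% and 3.78%, and Trav6-7-dv9 held 2.43%, 4.22% and 3.27%, so these 3 were highest in αA. Trav3-3 held 3.88%, 4.12% and 4.23% and Trav4-3 held 3.50%, 3.11% and 3.15%, and for both the intervals of the libraries overlap. Trav14-2 was lower in each library of that order, at 6.30% (5.74 to 6.90) in N, 3.06% (2.63 to 3.53) in αA and 1.76% (1.35 to 2.25) in PαA.

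**Figure D3:**
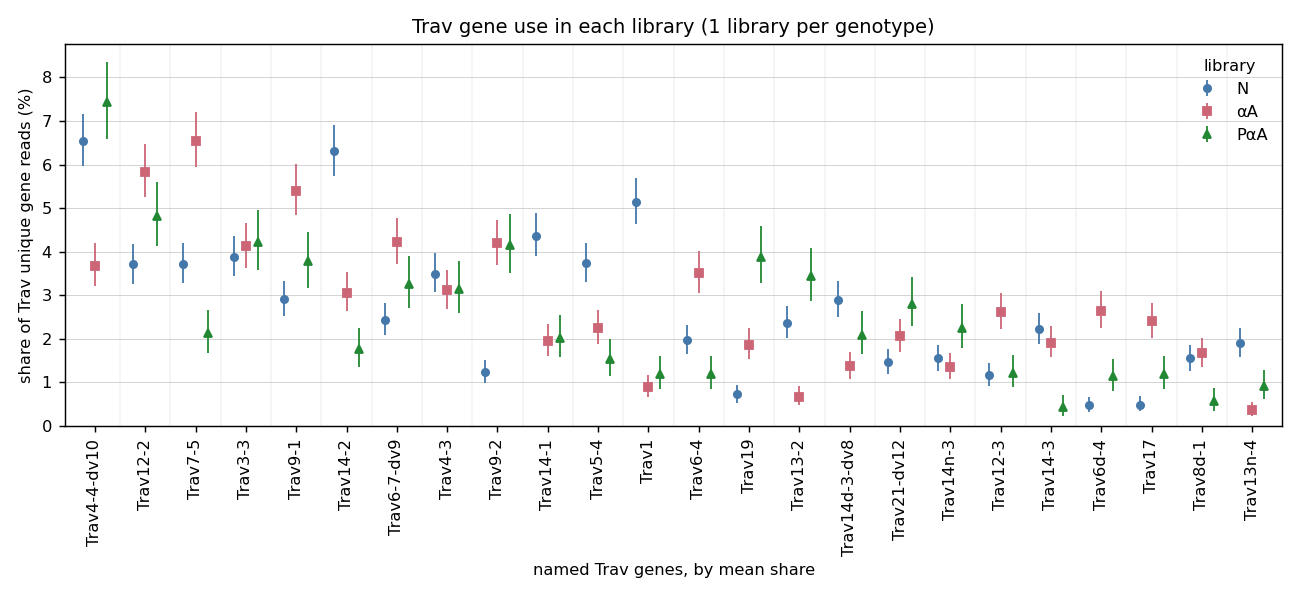
Share of Trav unique gene reads in percent (vertical axis) for the named Trav genes, ordered by their mean share (horizontal axis), with 1 point per library and bars for the exact 95% counting interval. Trav1 and Trav14-2 stand highest in N, at 5.14% and 6.30%, and Trav19 stands highest in PαA, at 3.89%.

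Several Trav genes were prominent in a single library. Trav1 (chr14:52427928-52428876), the V segment of the semi-invariant receptor of MAIT cells, had 355, 53 and 42 unique reads in N, αA and PαA. Its share was 5.14% (4.63 to 5.69), 0.895% (0.671 to 1.17) and 1.19% (0.861 to 1.61). N stood apart, while αA and PαA overlapped. Traj33, which is joined to Trav1 in MAIT cells, had 30, 48 and 8 reads, an order unlike that of Trav1. Trav9-2 (chr14:53590857-53591514) had 85, 248 and 146 reads and a share of 1.23% (0.984 to 1.52), 4.19% (3.69 to 4.73) and 4.15% (3.51 to 4.86), low in N alone. Trav17 (chr14:53806639-53807115) had 34, 142 and 42 reads and a share of 0.492% (0.341 to 0.687), 2.40% (2.02 to 2.82) and 1.19% (0.861 to 1.61), and Trav6d-4 had 33, 157 and 40 reads, so both peaked in αA. Trav19 (chr14:53845234-53845827) had 50, 111 and 137 reads and a share of 0.724% (0.538 to 0.953), 1.87% (1.54 to 2.25) and 3.89% (3.28 to 4.58), 5.37 times as large in PαA as in N. Trav13-2 was lowest in αA, with 163, 40 and 121 reads, and Trav14-3 lowest in PαA, with 153, 113 and 15 reads.

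A further pair of Trav genes, chosen after their values were seen, had reads nearly confined to N. Trav3-4 had 80, 0 and 4 unique reads in N, αA and PαA. Set against a floor of 3 reads in αA, its share was at least 22.9-fold higher in N. Trav15d-1-dv6d-1 had 40 unique reads in N and 0 in the other libraries, and 297, 2 and 3 gene reads with those that are not unique. Its share was at least 11.4-fold higher in N than in αA and at least 6.80-fold higher than in PαA.

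The duplicated blocks set how much of the Trav locus unique reads can show. The 34 d copies had 9496, 9769 and 5108 gene reads in N, αA and PαA, of which 7.22%, 5.82% and 7.54% were unique. The 28 n copies had 961, 868 and 651 gene reads, of which 71.7%, 57.9% and 65.3% were unique, and the other 46 Trav genes had 95.7%, 96.5% and 93.1% unique reads. In the 18 pairs with an identical V exon, 14995 reads that were not unique were listed under the gene that comes first on the chromosome and 57 under the second. The gene reads of a d copy may therefore hold reads of its n copy, and likewise of its copy outside the blocks. Trav10 and Trav7-4 had 35.2% and 26.6% own windows but 100% unique reads, against 6.76% for Trav10d and 8.99% for Trav7d-4. A high percent of unique reads outside the blocks does not show that all reads of a gene were told apart. Over the 74 Trav genes with at least 100 gene reads, Spearman's rho between the percent of own windows and the percent of unique reads was 0.75, as a description across genes that share their libraries.

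**Figure D4:**
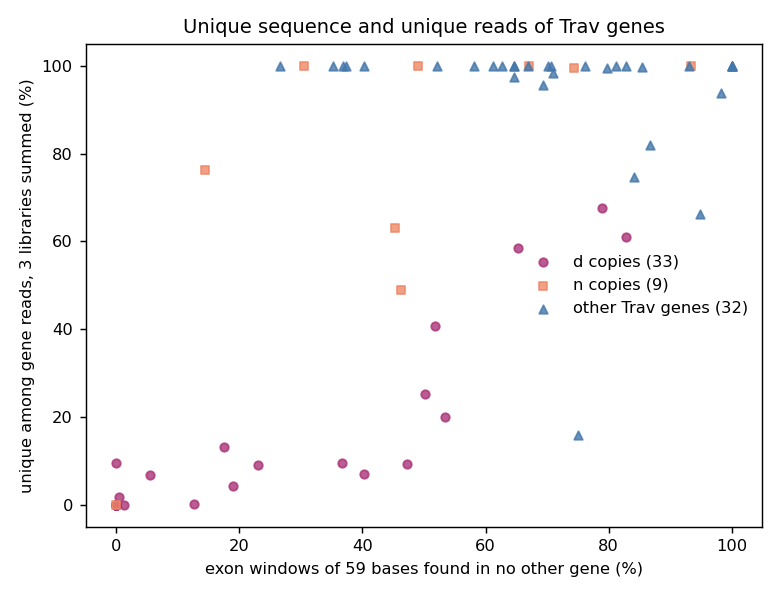
Percent of gene reads that were unique, over the 3 libraries summed (vertical axis), against the percent of exon windows of 59 bases found in no other gene (horizontal axis), for the 74 Trav genes with at least 100 gene reads, 1 point per gene. Most of the 33 d copies lie under 50% unique reads, and most of the 32 genes outside the d and n blocks lie at or near 100% unique reads even where few of their windows are their own.

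Trav families, which pool such copies, could be compared with all gene reads. The 15 genes of the Trav6 family held 11.2% (10.7 to 11.7) in N, 17.6% (17.0 to 18.2) in αA and 13.0% (12.3 to 13.7) in PαA. The 9 genes of Trav14 held 13.4% (12.9 to 13.9), 9.07% (8.62 to 9.53) and 7.50% (6.95 to 8.07). Of the families formed by member names, Trav6 was thus the largest in αA, and Trav14 in N, where Trav4 at 13.0% (12.5 to 13.5) overlapped it. C920008G01Rik is not a member by its name, but 264 of the 265 windows of Trav7n-6 occur in it. It had 496, 523 and 122 gene reads in N, αA and PαA, none unique, which were not counted here. With them the Trav7 family, at 1936 gene reads in N, would pass Trav14 there, at 2178. By unique reads alone Trav9 was the largest in αA, at 14.9% beside 14.1% for Trav6. Trav13 held 8.47%, 5.13% and 9.21%, and Trav9 held 12.2%, 15.8% and 12.6%. By unique reads Trav9 held 8.08%, 14.9% and 12.7%, with N lowest, so the pattern of Trav9 depends on which reads are counted. Trav15 held 2.22% (2.00 to 2.46), 0.326% (0.243 to 0.428) and 0.104% (0.0475 to 0.197). Trav11, which with Traj18 forms the invariant receptor of NKT cells, had no reads under its own name, and its near-identical copy Trav11d had 100, 170 and 164 reads, none unique. The family held 0.616% (0.501 to 0.749), 1.09% (0.929 to 1.26) and 1.89% (1.61 to 2.20), and Traj18 had 35, 46 and 27 reads. Zbtb16, a transcription factor of NKT and MAIT cells, had 11, 152 and 79 unique gene reads, introns included, lowest in N, where the share of Trav1 was highest. Its exon reads were not read apart. Over genes with exons, intron reads made up 4.56% of gene reads in αA, against 3.01% in N and 3.29% in PαA.

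**Figure D5:**
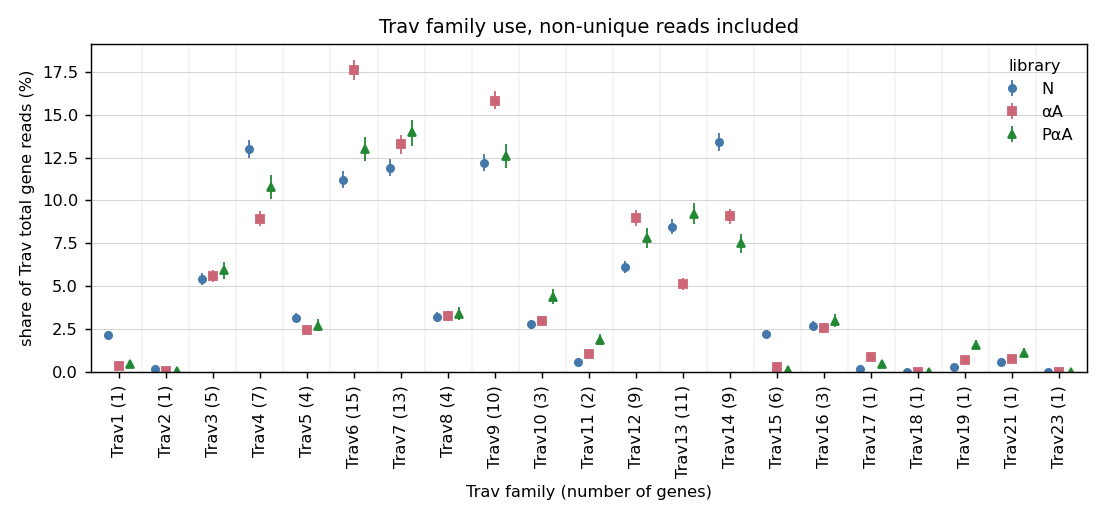
Share of all Trav gene reads in percent, reads that are not unique included (vertical axis), for the 21 Trav families with their number of genes (horizontal axis), with 1 point per library and bars for the exact 95% counting interval. Trav6 in αA, at 17.6%, is the highest point, and Trav1 and Trav15 stand above 2% only in N.

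V genes were also counted by the study's fold of 2. The fold was taken on CPM, among genes with at least 100 such reads in the higher library. For αA against N, labelled as overexpressing NFATc1/αA and as NFATc1-deficient, 17 of 51 V genes passed (8 higher, 9 lower), against 12.2% of all genes measured (8.87% higher, 3.36% lower). Over exon reads of genes with exons, a background added after seeing the data, that split turned over, to 2.14% higher and 5.64% lower. The 17 V genes were 4 of 20 Trbv genes, with Trbv3, Trbv12-1 and Trbv14 higher and Trbv4 lower, and 13 of 31 Trav genes, 5 higher and 8 lower. For PαA against αA, of which PαA is labelled as Blimp-1-deficient in addition, 14 of 44 V genes passed (2 higher, 12 lower), against 12.9% (2.42% higher, 10.5% lower). Trbv17 and Trav13-2 were higher, and Trbv29 and 11 Trav genes were lower. For PαA against N, 20 of 48 V genes passed (5 higher, 15 lower), against 13.2% (4.38% higher, 8.87% lower), and with TMM scaling 16 passed (6 higher, 10 lower). These calls were made on CPM, on which the Trav genes as a group were lowest in PαA. On shares within the locus, added after seeing the data, 9 of 24 Trav genes passed for PαA against αA (3 higher, 6 lower) and 10 of 28 for PαA against N (2 higher, 8 lower). Of the 20 Trbv genes, 3 passed on shares in each comparison (1 higher, 2 lower). For αA against N, Trbv3 at 1.85 times and Trbv14 at 1.99 times then fell short, and Trbv2 at 0.464 times passed as lower. None of the 3 constant genes passed in any comparison. The median size of the log2 ratio was 0.79, 1.01 and 1.07 over Trav genes and 0.48, 0.62 and 0.54 over Trbv genes in the 3 comparisons, against 0.26, 0.30 and 0.37 over all genes. The comparisons share libraries and are not independent of each other.

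Markers of other cells were read beside these values. The 6 B-lineage genes summed to 807, 1600 and 936 CPM in N, αA and PαA, of which Ighm made up 686, 1450 and 704. The CD8 genes Cd8a and Cd8b1 summed to 17.3, 32.5 and 21.5, the 3 NK genes to 25.1, 16.7 and 32.7, and the 5 myeloid genes listed to 364, 275 and 347. S100a9 was at 0 in αA, and no other gene of these lists was at 0 in a library. The B-lineage sum without Ighm was 121, 153 and 232 CPM, highest in PαA. Cd8a was also highest in PαA, at 0.749, 8.85 and 11.6 CPM, and Cd8b1 in αA, at 16.6, 23.6 and 9.88 CPM. The low NK sum of αA followed Eomes, at 17.2, 4.85 and 16.4 CPM. Klrb1c was lowest in N, at 7.36, and highest in PαA, at 15.8, and Ncr1 was highest in αA, at 0.848. The low myeloid sum of αA followed Lyz2, at 306, 204 and 276 CPM, and S100a8 and S100a9 were also lowest there. Csf1r was highest in αA, at 36.1, 65.2 and 43.6 CPM, and Itgax was highest in PαA. Of the genes used while receptors are assembled, Rag1 and Rag2, which cut the segments, had no unique reads in any library but 18 and 6 reads in αA that were not unique. Dntt, which adds bases at the joints, had 27, 5 and 0 unique reads, and Ptcra, the partner of the β chain before the α chain is made, had 0, 11 and 0. The part of these cells in the V gene shares was not tested.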

How the data were processed

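Poly(A) RNA of 3 sorted cell samples, 1 per genotype, was sequenced in single reads of 59 bases. The authors trimmed adapters and used CLC Genomics Workbench version 12 with default settings on GRCm38, per the study's methods and the labels. The annotation release is not given in the sources used here. For 25759 genes the authors deposited unnormalized counts of exon, intron and gene reads, each as a total and as uniquely placed reads. The library kit does not mark strand. RPKM and TPM columns are 0 for every member and were not used.

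Because the members have an exon length of 0, unique gene reads replaced the planned unique exon reads, and levels were set as CPM, per 1000000 unique gene reads, in place of RPKM. Depth was 24041462, 21236254 and 19526581 unique gene reads in N, αA and PαA. Shares carry exact Clopper-Pearson intervals at 95%, ratios the same interval on the split of reads, and 3 reads were the floor. Calls took a fold above 2 and at least 100 reads in the higher library. With 1 library per group there was no test. Named genes were the constant genes, the 8 Trav and 8 Trbv genes with the largest mean share, and among those with 100 reads in a library the 5 with the largest ratio of shares in each direction of each comparison, plus the marker lists. The members and lists were chosen with earlier results of these data known. Sequences and exon windows came from GENCODE M21, neighbours and names from the files. Scripts (Python 3.11.15, pandas 2.3.3, scipy 1.17.1, R 4.3.3, edgeR 4.0.16 for TMM factors, DESeq2 1.42.0 for size factors) were tested on simulated data.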

Additional observations from a re-analysis of the deposited data

How the results depend on the processing

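No paired analysis was possible because each genotype had 1 library. Of 220 values under alternatives for 65 results, 122 stayed within the counting interval of the reported value or a set margin around it, 96 moved and 2 changed sign. The 11 log2 share ratios recomputed, of 10 named V genes, kept their sign under each share alternative. This is a weak check, since a gene's exon length or number of windows cancels in a ratio between libraries. Those alternatives, like leaving out genes under 50% unique, acted on these ratios only through the total of the locus. Some alternatives could not move a value and are no check on it, though they count among the 122. These were leaving out V pseudogenes, and for Trbv genes counting all gene reads or leaving out genes under 50% unique, since Trbv reads were nearly all unique. Shares themselves depended on the reads: Trav4-4-dv10 in PαA was 3.02% with all gene reads, and Trbv3 in αA was 22.3% per kb of exon and, in an alternative chosen after seeing the data, 21.3% per window of its own. The effective number of Trbv families was 12.9 in N, 11.5 in αA and 12.5 in PαA. The Trac log2 ratio of PαA against αA was -0.94 with all gene reads, -0.72 with TMM factors and -0.76 with median-of-ratios factors. With all gene reads the Trbc1 share was 66.1% in N, 63.9% in αA and 62.6% in PαA, since reads matching both genes were listed under Trbc1. All gene reads also turned the Trbc1 log2 ratio of αA against N to 0.07 and that of Trav per Trac for PαA against N from -0.05 to 0.02.

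V genes past the fold in αA against N became 27 at a fold of 1.5, 27 with a minimum of 30 reads and 37 with none. In PαA against αA they became 30 with all gene reads, 30 at a fold of 1.5, 25 with a minimum of 30 reads and 37 with none, and in PαA against N 37 with none and 13 on shares within the locus. The lower minimums, the calls on shares, the Trbv values without Trbv3 and a background over exon reads were added after seeing the data. That background called 7.78%, 7.94% and 15.3% of genes in the 3 comparisons, and in αA against N it turned the split over, to 2.14% higher and 5.64% lower. Alternatives on RPKM (levels above 5 or 1, a pseudocount on RPKM) and on exon reads were not run because both are 0 for the members, and leaving out V pseudogenes changed nothing because no member has that biotype. Small V genes are limited by depth: 77 of 108 Trav genes stayed under 100 unique reads in every library.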

Other observations

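Other T-cell receptor loci, outside the members and chosen after their values were seen, were read for the same libraries. The γ constant genes Tcrg-C1 and Tcrg-C2, which are close copies of each other, were read by unique reads alone. Tcrg-C1 had 135, 39 and 424 unique reads and Tcrg-C2 had 108, 128 and 565 (N, αA and PαA). Trgv2, the V segment of the γ locus with the most reads, had 96, 35 and 322. Tcrg-C2 stood at 4.49, 6.03 and 28.9 CPM, so the 3 γ genes were highest in PαA. Trdc, the constant gene of the δ chain, was lowest there, with 216, 184 and 47 reads. Both loci had far fewer reads than Trac, and with 1 library per genotype none of these differences has a replicate check.

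Single J segments of the β chain also differed. Of Trbj reads in N, αA and PαA, Trbj2-4 held 8.61%, 16.0% and 15.8%, and Trbj1-4 held 9.55%, 5.38% and 5.67%. Trbj2-7 held 16.1%, 16.0% and 15.1%. Of the α-chain J segments, Traj31 held the most reads in N and αA, at 9.65% and 8.15% of Traj reads, and Traj37 in PαA, at 7.89%.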
